A study of Homo sapiens with 10 samples.

Results

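The genes described here are 47 genes of DNA replication and S phase, named as a group by their known roles with earlier results of these data in view, out of 19893 genes in the deposited matrix. All 47 were found in it, and all 47 passed the filter on low counts in the sums over all cells. By role they are 5 genes of origin licensing, 12 of the replicative helicase, 6 of the sliding clamp and its loader, 3 of single-strand DNA binding, 9 of the polymerases and primase, 2 of Okazaki fragment joining, 4 of nucleotide supply, 4 of chromatin behind the fork and 2 E2F transcription factors. They were measured by droplet single-cell RNA-seq in Kuramochi, an ovarian cancer line of the high-grade serous type, from human epithelium by its label, that carries a mutated BRCA2 gene. The 5 groups were untreated control cells, cells with no earlier exposure after 9 days of olaparib at 10 µM or 320 µM (labelled P, called persister cells here), and populations that had adapted to growth in 10 µM or 320 µM olaparib (labelled A, called adapted cells). Olaparib inhibits PARP1 and PARP2, enzymes that sense DNA breaks. All groups came from this 1 line, and how many adapted populations were raised at each dose is not given in the sources used here. Cells of each group carried antibody hashtags and were mixed in 2 pools. UMIs (unique molecular identifiers, 1 per captured RNA molecule) were summed over the cells of a group in a pool, which gave 10 sums, 2 per group.

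A cell copies its DNA once per cycle. Before S phase the origin recognition complex, CDC6 and CDT1 load the MCM helicase on origins, a step called licensing that geminin (GMNN) blocks once replication has begun. CDC45 and the GINS complex then turn MCM into a moving helicase, RPA coats the unwound strands, primase and the polymerases alpha, delta and epsilon copy them, and PCNA, loaded by RFC, holds the polymerases on the template. The lagging strand is made as Okazaki fragments, whose ends are trimmed by FEN1 and sealed by DNA ligase 1 (LIG1). Most of these genes are transcribed at the G1/S boundary by E2F factors released from the Rb protein, so their RNA is low in resting and early G1 cells and high in S phase. Tumour cells with faulty BRCA2 depend on PARP activity when forks meet damage.

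The sums held 3532281 to 23189583 UMIs from 263 to 2435 cells, and the 10 µM persister sums were the smallest, with 300 and 263 cells. Levels are CPM, UMI counts scaled to a common total per sum, and they are compared between groups for the same gene only. The line's labelled identity was checked on its markers. Summed over all cells, KRT18 and KRT8, keratins of simple epithelia, stood between 688 and 2809 CPM and between 469.7 and 1285 CPM. The 12 serous epithelial markers together stood at 4560 and 4724 CPM in control and 1375 and 1246 in 320 µM adapted cells. In 320 µM adapted cells 11 of them were lower than control and 1 higher, against 36.9% lower and 37.6% higher of all genes. In 10 µM persister cells 4 were lower and 6 higher, against 29.3% lower and 27.3% higher. In 320 µM persister cells 6 were lower and 2 higher, against 28.3% lower and 26.3% higher. In 10 µM adapted cells 7 were lower and 4 higher, against 33.4% lower and 33.7% higher. PAX8, a factor of the Müllerian lineage, stood at 173 and 159 CPM in control, 168 and 143 in 10 µM persister, 167 and 160.2 in 320 µM persister, 90.3 and 92.4 in 10 µM adapted and 64.1 and 62.8 in 320 µM adapted cells. The epithelial adhesion genes EPCAM and CDH1 were at 4.25 and 5.01 and 0.398 and 0.424 CPM in control. SOX17, a factor of the same lineage, stood at 289 and 360.0 CPM in control, 93.6 and 103 in 10 µM persister, 182 and 223 in 320 µM persister, 14.6 and 18.2 in 10 µM adapted and 4.32 and 7.03 in 320 µM adapted cells. The 9 fibroblast and stromal markers summed to 41.6 to 63.2 CPM in control and persister sums, 673 to 725 in 10 µM adapted and 244 to 265 in 320 µM adapted sums, mostly from ACTA2, THY1 and, at 10 µM, COL1A1. The stromal gene COL1A2 was at or near 0 in all sums. In 10 µM adapted cells the 8 stromal markers that could be tested were all higher than control (median log2 change 5.84). In 320 µM adapted cells 3 were higher and 1 lower. The shares of all genes were 33.7% higher at 10 µM and 37.6% higher and 36.9% lower at 320 µM. The 9 leukocyte markers summed to 1.33 and 1.23 CPM in control, 23.7 and 21.9 in 10 µM persister and 4.01 and 2.91 in 320 µM persister cells. In adapted cells they summed to 7.77 and 8.70 at 10 µM and 17.7 and 18.9 at 320 µM. Among them CD3E, CD3D and MS4A1 were at 0. The 4 endothelial markers summed to 0.348 to 6.73 CPM. The part of the stromal markers in the differences between adapted and control cells was not tested. A split of 10 µM adapted cells by ACTA2, given below, does not set the other stromal markers apart.

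Over all cells, most replication genes stood lower after 9 days in olaparib. In 10 µM persister cells 40 of the 47 were lower than in control and 1 was higher, and in 320 µM persister cells 39 were lower and 0 higher, each past an adjusted p of 0.05 in edgeR's quasi-likelihood test. Across all 13330 genes tested the shares were 29.3% lower and 27.3% higher at 10 µM and 28.3% lower and 26.3% higher at 320 µM. The median log2 change of the members was -0.94 and -0.77, where the median of all genes was -0.026 and -0.013. In a sum over all cells, fewer replicating cells and less RNA per replicating cell cannot be told apart. The adapted populations had members on both sides of control. At 10 µM 28 members were lower and 5 higher, against 33.4% lower and 33.7% higher among all genes, and at 320 µM 25 were lower and 8 higher, against 36.9% lower and 37.6% higher. With library totals alone in place of the scaling, where the median of all genes was -0.22, the 320 µM adapted split was 34 lower and 4 higher. The shares of all genes called in that fit are not given here, so this split is not set against all genes.

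By name, 15 members were lower in all 4 comparisons with control: ORC1, GMNN, the helicase subunits MCM2 to MCM6, RFC3, RFC4, PRIM2, POLE, FEN1, RRM2, CHAF1A and E2F8. In all, 36 members were lower in both persister groups. How many of all genes share such a pattern over several comparisons was not counted, so these counts only name the members. CDT1, which loads the helicase, and PRIM1, the catalytic subunit of primase, were the 2 members higher in both adapted groups, and RFC2 and SLBP passed the test in none of the 4, though with the pool as a replicate block each passed in 2 (RFC2 in both 10 µM groups, SLBP in both adapted groups). Whether the 2 pools hold separate cultures is not given, so a p-value here measures spread between pools that may be technical.

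**Figure D1:**
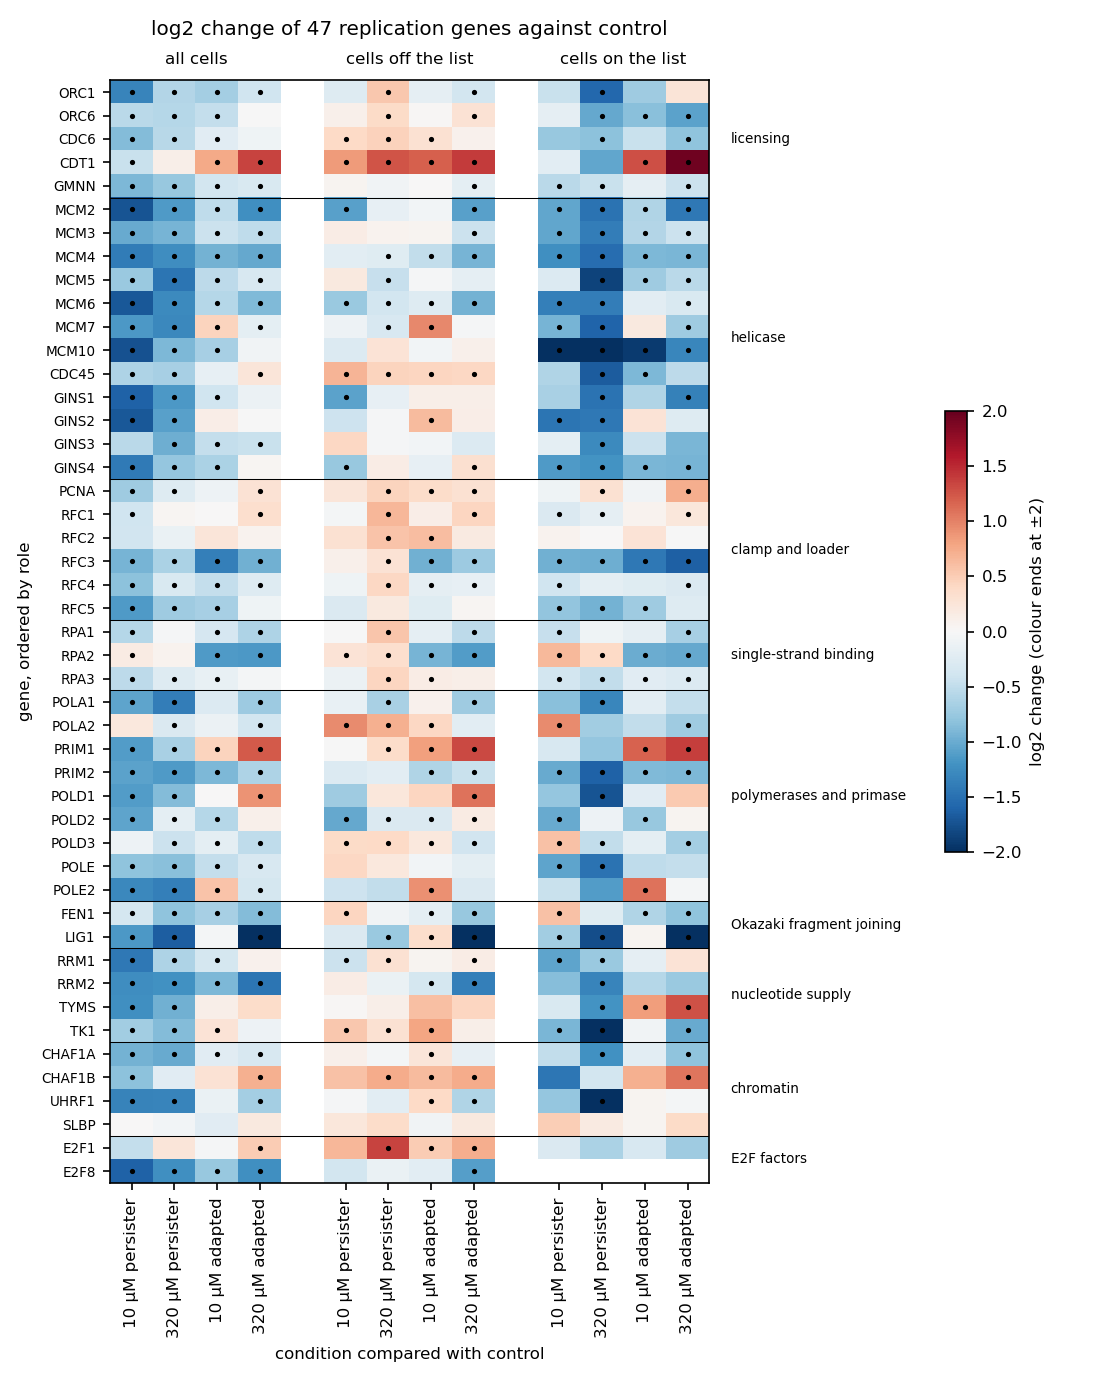
Heat map of the log2 change against control of each of the 47 genes (vertical axis, ordered by role), in 3 blocks of columns for all cells, cells off the list and cells on the list, each with the 4 treated groups; blue is lower, red is higher, the colour ends at ±2 and a dot marks a change past the edgeR test. Over all cells the persister columns are mostly blue (40 and 39 of 47 genes lower past the test), while off the list they hold both colours (6 lower and 8 higher at 10 µM, 7 and 20 at 320 µM); E2F8 was not tested on the list and is blank there.

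The members were read again within the cells on and off a deposited list. Whether the cells of a set are alike across groups was not tested. The authors' second table, tagged g1, lists 7762 of the 13800 cells (56.2%), and the other 6038 are called cells off the list here. How the list was made is not given in the sources used here, and if replication genes helped to make it, levels within each set follow partly from that choice. MKI67, a protein of cycling cells that is not a member, had a UMI in 27.6 to 41% of cells off the list and in 0.522 to 3.03% of those on it, after each cell was thinned to 3000 UMIs, which left out 11 to 35 cells per sum. Off the list, thinning left out 16 of 74 and 12 of 63 10 µM persister cells, against 3 of 1404 and 12 of 1217 control cells. Median UMIs per cell were 9917 to 16171 off the list and 6901 to 15239 on it. Fewer persister cells were off the list. The share was 57.1 ± 0.839% (SD, n = 2 pools) in control, 24.3 ± 0.504% in 10 µM persister, 23.2 ± 2.68% in 320 µM persister, 35 ± 2.92% in 10 µM adapted and 45.5 ± 0.860% in 320 µM adapted cells. Both pools of every treated group lay below both control pools. Per pool, the control shares were 57.7 and 56.5% and the highest treated shares, in 320 µM adapted cells, were 46.1 and 44.9%. With 2 pools against 2, an exact two-sided permutation test cannot give a p below 0.333.

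In every group a cell off the list held more member RNA than one on it. By the mean per cell, off the list both pools of each persister group lay above both control pools. Summed CPM of the 47 genes off the list did not separate 10 µM persister pools from control. There pool 1 reached 2950 and pool 2 only 2854, while the control pools held 2856 and 2862. The 320 µM persister pools stayed above these sums, with 3225 and 3244. After thinning to 3000 UMIs, cells off the list held 8.29 ± 0.0126 UMIs of the 47 genes in control (SD, n = 2 pools), 9.51 ± 0.00526 in 10 µM persister, 11 ± 0.0155 in 320 µM persister, 8.98 ± 0.0468 in 10 µM adapted and 7.30 ± 0.190 in 320 µM adapted cells. The 10 µM persister value rests on 58 and 51 cells, and its SD shows only how near the 2 pool means lay. On the list the means were 3.0 ± 0.0855, 2.32 ± 0.155, 2.20 ± 0.0577, 2.24 ± 0.0274 and 1.97 ± 0.0597, lower than control in every treated pool. Over all cells they were 6.02 ± 0.00878, 3.86 ± 0.113, 4.19 ± 0.268, 4.62 ± 0.170 and 4.39 ± 0.0638. Without thinning, per 3000 UMIs of each cell, the means off the list were 8.23 ± 0.0498 in control, 9.36 ± 0.291 and 10.7 ± 0.155 in persister and 8.81 ± 0.0139 and 7.19 ± 0.0823 in adapted cells at 10 and 320 µM. The 320 µM adapted cells were the 1 group whose pools lay below both control pools in both sets of cells.

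**Figure D2:**
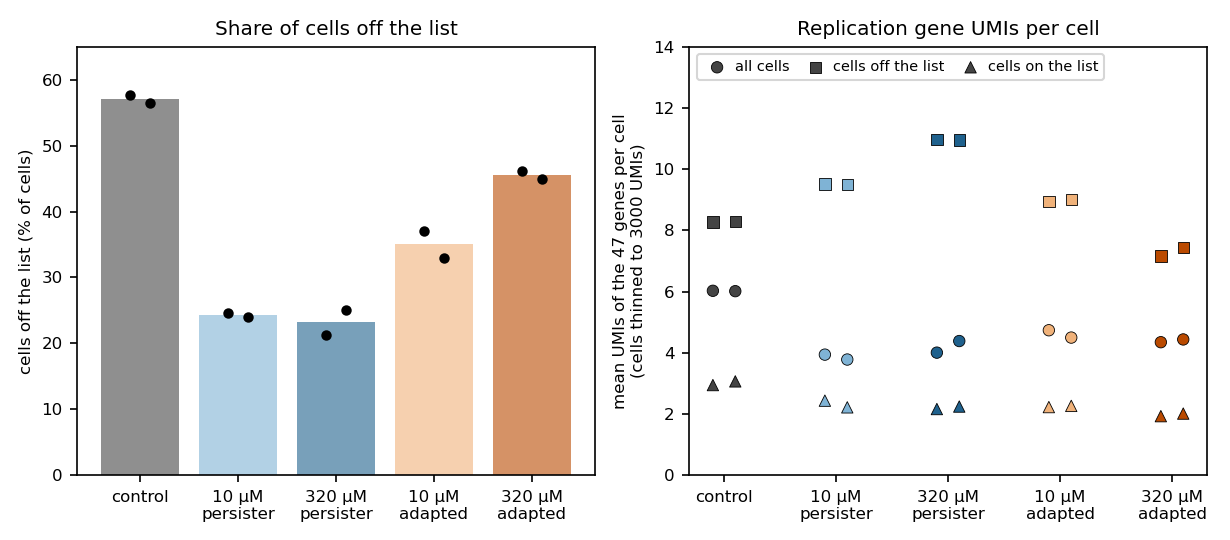
The left panel plots the share of cells off the list (vertical axis, % of cells) by group, with the bar at the mean and a point for each of the 2 pools. The right panel plots the mean UMIs of the 47 replication genes per cell (vertical axis, cells thinned to 3000 UMIs) by group for all cells (circles), cells off the list (squares) and cells on it (triangles), with 1 symbol per pool: off the list the 320 µM persister pools are the highest and the 320 µM adapted pools the lowest, while on the list the control pools are the highest.

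The share of cells rich in member RNA followed the same order as the mean off the list. There 33.3 ± 0.179% of control cells held at least 10 member UMIs, against 48.8 ± 3.13% at 10 µM and 62.2 ± 1.42% at 320 µM in persister cells, and 42.1 ± 0.0987% and 23.9 ± 0.825% in adapted cells (SD, n = 2 pools each). A list of 28 mitotic genes, which act after S phase, had another order. They held 14.5 ± 0.248 UMIs per cell off the list in control. In persister cells they held 11.1 ± 0.00382 at 10 µM and 12.1 ± 0.700 at 320 µM, and in adapted cells 13.7 ± 0.0364 and 14.7 ± 0.278. The ratio of member to mitotic UMIs off the list was 0.572 ± 0.00891 in control, 0.857 ± 1.78e-04 and 0.911 ± 0.0515 in persister cells and 0.657 ± 0.00167 and 0.495 ± 0.0222 in adapted cells. It was above control in both pools of both persister groups and of 10 µM adapted cells, and below control in both pools of 320 µM adapted cells.

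**Figure D3:**
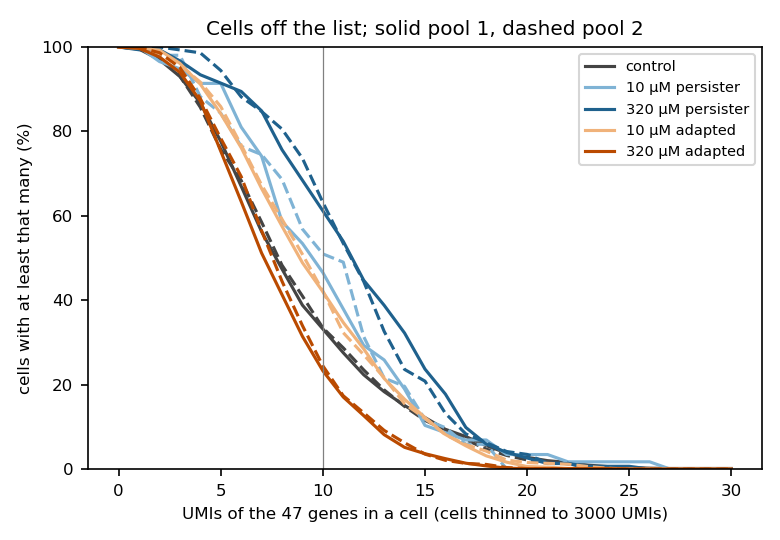
Share of cells off the list (vertical axis, %) that hold at least the number of member UMIs on the horizontal axis (UMIs of the 47 genes, cells thinned to 3000), with a solid line for pool 1 and a dashed line for pool 2 of each group and a vertical line at 10 UMIs. At that line the 320 µM persister curves are the highest, with a mean of 62.2% of cells, and the 320 µM adapted curves the lowest, with 23.9%.

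In the sums over cells off the list, persister cells no longer had most members below control. At 10 µM 6 of the 47 members were lower and 8 higher, against 17.1% lower and 17.4% higher of 12360 genes. That comparison rests on 74 and 63 persister cells: without 10 µM persister pool 1 it called 8 members, and with no filter on low counts 7 were lower and 5 higher. At 320 µM 7 were lower and 20 higher, against 21.8% lower and 20.8% higher. Adapted cells at 10 µM had 9 members lower and 18 higher, against 29.7% lower and 30.1% higher, and at 320 µM 18 lower and 12 higher, against 36.2% lower and 36.4% higher. Median log2 changes of the members were -0.00067, 0.21, 0.052 and -0.16 in that order. With library totals alone the splits at 10 and 320 µM in persister cells and at 320 µM in adapted cells were 4 lower and 11 higher, 1 lower and 24 higher, and 25 lower and 8 higher, with medians of all genes at 0.13, 0.20 and -0.15. Among cells with an MKI67 UMI, taken in place of cells off the list, the 4 splits were 4 lower and 3 higher, 2 and 15, 9 and 15, and 17 and 7. The shares of all genes called in the fits with library totals or with MKI67 cells are not given here. Those splits are therefore not set against all genes. In 320 µM persister cells more members were higher than lower under either choice of cells.

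Off the list CDT1 and the helicase activator CDC45 were higher in all 4 treated groups, and MCM6, a helicase subunit, was lower in all 4. The share of all genes with such patterns over several groups was not counted here either. A total of 7 members were higher in both persister groups: CDC6, CDT1, CDC45, RPA2, POLA2, POLD3 and TK1. Those higher in both adapted groups were 6, namely CDT1, CDC45, PCNA, PRIM1, CHAF1B and E2F1, and those lower in both were 8, namely MCM4, MCM6, RFC3, RFC4, RPA2, PRIM2, FEN1 and RRM2. The CDC45 change turned to -0.028 in 320 µM adapted cells with an MKI67 UMI, and in thinned cells that of CDC6 in 10 µM persister cells turned to -0.070 and that of FEN1 in 10 µM adapted cells to 0.056. MCM10, GINS3, RFC5, POLE, TYMS and SLBP passed the test in none of the 4. With the pool as a replicate block TYMS passed in 10 and 320 µM adapted cells (adjusted p = 9.50e-22 and 2.97e-15), SLBP in 320 µM persister and 320 µM adapted cells (7.71e-05 and 6.84e-04), MCM10 in 320 µM persister cells (0.0303) and RFC5 in 10 µM adapted cells (0.0163), and GINS3 and POLE still in none. When every cell was thinned to 3000 UMIs, which leaves fewer counts, 1 member was called at 10 µM and 11 at 320 µM in persister cells.

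On the list, where MKI67 is rare, more members were lower than higher in every treated group. Of the 46 members that could be tested (all but E2F8), 21 were lower and 4 higher in 10 µM persister cells, against 25.9% lower and 26.4% higher of 12461 genes. In 320 µM persister cells 32 were lower and 2 higher, against 23.6% lower and 23.5% higher. In 10 µM adapted cells 15 were lower and 4 higher, against 27.9% lower and 29.8% higher, and in 320 µM adapted cells 24 and 6, against 33.0% lower and 33.5% higher. The median log2 changes were -0.63, -1.15, -0.24 and -0.50. Counts called fell to 14 and 17 for 10 and 320 µM persister cells when cells were thinned, and DESeq2 called 11 for 10 µM adapted cells.

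The effect of treatment differed between the sets of cells, tested as the effect off the list minus the effect on it. This difference was positive for 37 members and negative for 0 in 320 µM persister cells, where 9.60% positive and 11.2% negative was the share among 12892 genes. In 10 µM persister cells 10 were positive and 1 negative, against 3.45% positive and 5.45% negative, and without pool 1 or pool 2 of that group 5 and 7 members passed. In 10 µM adapted cells 16 were positive and 0 negative, against 2.89% positive and 2.88% negative. The count was 9 without control pool 1, 7 without control pool 2 and 7 without 10 µM adapted pool 1. In 320 µM adapted cells 13 were positive and 3 negative, against 4.75% positive and 7.17% negative. It was 9 in all without control pool 2, and with library totals alone 22 were positive and 2 negative. In thinned cells the difference passed for 1 and 13 members in persister and 8 and 9 in adapted cells at 10 and 320 µM. TK1, the kinase that salvages thymidine, was split at 320 µM in persister cells: its log2 change was 0.30, SE 0.071, adjusted p = 6.76e-04 off the list against -2.13, SE 0.15, adjusted p = 1.39e-16 on it, a difference of 2.45, SE 0.16, adjusted p = 3.71e-38. For CDC45 the same effects were 0.45 and -1.66, and for ORC6, a subunit of the origin recognition complex, 0.39 and -1.03. The call for TK1 in 320 µM persister cells off the list was lost in cells with an MKI67 UMI (adjusted p = 0.431). The call for CDC45 in 320 µM persister cells off the list was lost without 320 µM persister pool 1 (adjusted p = 0.0881) and in thinned cells (0.521). The call for ORC6 in 320 µM persister cells off the list was lost in thinned cells or in cells with an MKI67 UMI (adjusted p = 0.12 and 0.191). Thinning was the 1 alternative under which the call was lost for CDC45 in 320 µM persister cells on the list (adjusted p = 0.331).

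**Figure D4:**
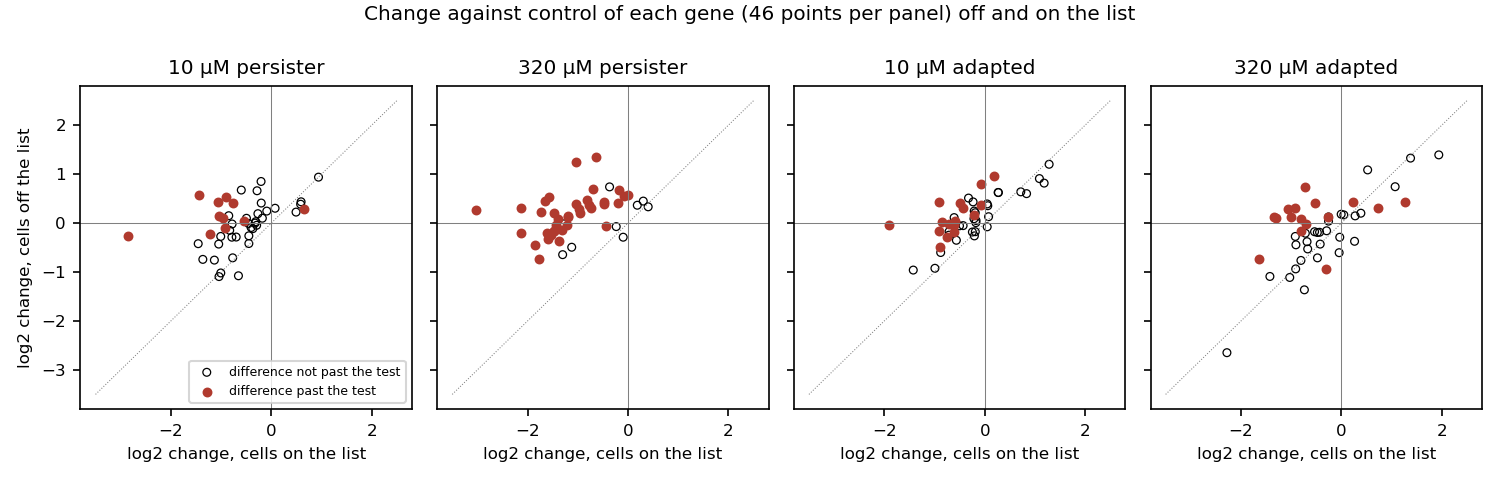
Log2 change against control off the list (vertical axis) and on it (horizontal axis) for the 46 members tested in both, 1 panel per treated group; filled points have a difference between the sets past the edgeR test and the dotted line marks equal changes. In the 320 µM persister panel most points are filled and lie above the line, where 37 of the 47 members had a positive difference past the test.

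E2F factors bind short sites before many of these genes. The 250 bases before each RefSeq start (build GRCh38.p14) were searched on both strands for 4 words, TTTCCCGC, TTTGGCGC, TTTCGCGC and TTTGCCGC, and their complements GCGGGAAA, GCGCCAAA, GCGCGAAA and GCGGCAAA. Of the 40 members matched to an entry, 15 held a word (37.5%), against 928 of 27305 genes (3.4%). Unmatched members were E2F8, MCM4, MCM5, POLD3, RPA2, RPA3 and GINS4. The 15 are CDT1, E2F1, GINS2, GMNN, LIG1, MCM3, MCM6, MCM7, PCNA, POLA1, POLA2, POLE, RFC3, TYMS and UHRF1. The lines show 6 of them whose levels went different ways in the adapted groups, 5′ to 3′ in the gene's own direction with the words in capitals, as windows of 30 bases. For MCM6, 200 bases before the start are shown, where TTTGGCGC and GCGCGAAA overlap by 4 bases at 2 places. Counted from the RefSeq start, the words begin at -35 in CDT1, -114 in LIG1, -187 and -9 in MCM7, -59 in PCNA, -55 in RFC3 and -152 and -90 in MCM6. The windows of CDT1, LIG1, MCM7 and RFC3 lie within exons of GENCODE 29, those of PCNA and MCM6 before the exons.
CDT1, chr16:88803743-88803772, plus strand: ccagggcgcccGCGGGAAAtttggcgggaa
LIG1, chr19:48170440-48170469, minus strand: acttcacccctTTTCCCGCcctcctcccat
MCM7, chr7:100101566-100101595, minus strand: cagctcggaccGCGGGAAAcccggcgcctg
MCM7, chr7:100101388-100101417, minus strand: ggggggcgacgTTTCGCGCcaatttcggtt
PCNA, chr20:5126663-5126692, minus strand: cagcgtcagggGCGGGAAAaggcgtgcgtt
RFC3, chr13:33818083-33818112, plus strand: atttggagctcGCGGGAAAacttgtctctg
MCM6, chr2:135876444-135876643, minus strand: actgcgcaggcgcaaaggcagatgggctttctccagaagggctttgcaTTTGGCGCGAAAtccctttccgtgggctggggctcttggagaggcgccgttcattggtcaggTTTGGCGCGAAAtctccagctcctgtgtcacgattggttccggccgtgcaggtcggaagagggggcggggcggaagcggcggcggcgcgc

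These 6 genes were picked because their levels over all cells differed in direction, so that difference follows from the choice. Each has the same kind of word within 200 bases of the start. In 320 µM adapted cells the log2 change against control was 1.34 for CDT1, -2.65 for LIG1, -0.89 for MCM6 and -0.95 for RFC3, each past the test. In 10 µM adapted cells it was 0.45 for MCM7 (adjusted p = 1.43e-05) and -0.094 for PCNA (adjusted p = 0.207). A match is a description of the letters and not evidence of binding. The same search found a word in 9 of 40 matched genes of a list of other replication genes (22.5%) and in 3 of 23 matched mitotic genes (13%).

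Among the 5 licensing genes, CDT1 was the 1 above control past the test in adapted cells, while 4 fell in 10 µM and 2 in 320 µM adapted cells, where 33.4% and 36.9% of all genes were lower. CDT1 (chromosome 16, 88803213 to 88809258, plus strand, GENCODE 29) was at 10.3 and 10.7 CPM in control, 7.74 and 7.69 in 10 µM persister, 11.5 and 11.4 in 320 µM persister, 17.7 and 17.9 in 10 µM adapted and 27.1 and 26.3 in 320 µM adapted cells. Both adapted groups lay above every control and persister sum. The log2 change was 0.76, SE 0.095, adjusted p = 3.99e-08 in 10 µM and 1.34, SE 0.088, adjusted p = 3.27e-14 in 320 µM adapted cells, and off the list the changes were 1.20 and 1.39. In 320 µM persister cells the log2 change of CDT1 was 0.12 over all cells (adjusted p = 0.406) and 1.25 off the list (SE 0.13, edgeR adjusted p = 2.69e-10). Over all 10 µM persister cells its change was -0.44. GMNN, which binds and blocks CDT1, stood at 129 and 127 CPM in control, 65.5 and 71.8 in 10 µM persister, 74.9 and 75.9 in 320 µM persister, 108 and 91.7 in 10 µM adapted and 105 and 102 in 320 µM adapted cells. Every treated sum was below both control sums, and the log2 change was -0.90, -0.76, -0.36 and -0.31 in 10 and 320 µM persister and 10 and 320 µM adapted cells, each past the test. ORC6 stood at 76.5 and 73.6 CPM in control, 58.5 and 45.4 in 10 µM persister, 51.7 and 49.7 in 320 µM persister, 57.2 and 51 in 10 µM adapted and 77.9 and 71.9 in 320 µM adapted cells. It fell in both persister groups and in 10 µM adapted cells, and its 320 µM adapted sums overlapped control. ORC1, the ATPase of the same complex, and CDC6 fell in both persister groups, with log2 changes of -1.31 and -0.87 at 10 µM and -0.58 and -0.56 at 320 µM. The call for CDT1 in 10 µM persister cells was lost without control pool 2, 10 µM persister pool 1 or 10 µM persister pool 2 (adjusted p = 0.0678 to 0.149) and with DESeq2, with library totals alone, in thinned cells or with the 4 sums compared alone (0.0561 to 0.436). The call for ORC1 in 320 µM persister cells was lost without 320 µM persister pool 1 (adjusted p = 0.114) and with DESeq2 or in thinned cells (0.0655 and 0.281). In thinned cells, and under no other alternative, the call was lost for ORC1 in 10 µM persister cells (adjusted p = 0.238).

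Of the 12 helicase genes 11 were lower in 10 µM and 12 in 320 µM persister cells, against 29.3% and 28.3% of all genes. MCM4, a core subunit, was at 147 and 139 CPM in control, 54.9 and 52.9 in 10 µM persister, 57.6 and 62.9 in 320 µM persister, 77.5 and 70.1 in 10 µM adapted and 70.8 and 69.3 in 320 µM adapted cells. No treated sum reached the control level. Its log2 changes were -1.40, -1.24, -0.95 and -1.03, and in adapted cells off the list -0.48 and -0.94, all past the test. MCM7, another core subunit, was at 86.1 and 84.7 CPM in control, 41.8 and 35.3 in 10 µM persister, 39 and 30.7 in 320 µM persister, 124 and 109 in 10 µM adapted and 73.8 and 74.8 in 320 µM adapted cells. It was the 1 helicase gene above control past the test in 10 µM adapted cells, with both sums above both control sums (0.45, SE 0.072, adjusted p = 1.43e-05), and off the list the change was 0.96, SE 0.064, adjusted p = 4.23e-16. In 320 µM adapted cells its log2 change was -0.20. MCM2 was at 29.1 and 30.1 CPM in control, 9.54 and 8.41 in 10 µM persister, 12.8 and 14.2 in 320 µM persister, 21.3 and 20.4 in 10 µM adapted and 12.5 and 12.8 in 320 µM adapted cells. In 320 µM adapted cells the log2 change was -1.22, SE 0.087, adjusted p = 1.97e-13, and off the list it was -1.09 there and -0.05 (adjusted p = 0.661) in 10 µM adapted cells. MCM6 was at 55.8 and 50.1 CPM in control, 18.1 and 14.7 in 10 µM persister, 20.5 and 23.5 in 320 µM persister, 36.4 and 35.3 in 10 µM adapted and 30.3 and 26.9 in 320 µM adapted cells, and the 320 µM adapted sums were below the 10 µM adapted ones (-0.33, SE 0.083, adjusted p = 0.00106). MCM5 was at 26 and 23.8 CPM in control, 18.3 and 11.8 in 10 µM persister, 8.71 and 9.43 in 320 µM persister, 17.8 and 17 in 10 µM adapted and 21.4 and 18.8 in 320 µM adapted cells, with the lowest sums in 320 µM persister cells. These genes encode subunits of 1 hexamer, and their changes differed: in 10 µM adapted cells the log2 changes of MCM2 to MCM7 were -0.51, -0.42, -0.95, -0.52, -0.56 and 0.45, and each passed the test. The call for MCM7 in 320 µM adapted cells was lost without control pool 1, 320 µM adapted pool 1 or 320 µM adapted pool 2 (adjusted p = 0.0815 to 0.0954) and with DESeq2 (0.0917).

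CDC45, which joins MCM and GINS in the active helicase, was at 14.9 and 14.5 CPM in control, 9.54 and 9.61 in 10 µM persister, 8.94 and 9.55 in 320 µM persister, 13.5 and 12.7 in 10 µM adapted and 18.1 and 16.7 in 320 µM adapted cells. Its persister sums were the lowest, and over all 320 µM adapted cells its log2 change was 0.24. Off the list the log2 changes of CDC45 were 0.67, 0.45, 0.42 and 0.41, in the order 10 and 320 µM persister, 10 and 320 µM adapted cells, and the last turned to -0.028 in cells with an MKI67 UMI. GINS1 to GINS4 form the 4-part ring that completes the helicase. GINS2 fell in persister cells (log2 changes of -1.70 and -1.08), with 0.13 and -0.0089 in adapted cells, where neither passed (adjusted p = 0.149 and 0.924). GINS1 and GINS4 fell too, with log2 changes of -1.61 and -1.42 in 10 µM persister cells, while the 10 µM persister change of GINS3 was -0.54 (adjusted p = 0.0701). MCM10, which helps to start the helicase, had log2 changes of -1.75 and -0.90 in 10 and 320 µM persister cells. The call for CDC45 in 320 µM adapted cells was lost without control pool 1, control pool 2 or 320 µM adapted pool 1 (adjusted p = 0.0545 to 0.179) and with DESeq2, with library totals alone or in thinned cells (0.16 to 0.913). The call for CDC45 in 10 µM persister cells off the list was lost without 10 µM persister pool 1 or 10 µM persister pool 2 (adjusted p = 0.0612 and 0.0952) and in thinned cells or in cells with an MKI67 UMI (0.157 and 0.426). The call for CDC45 in 320 µM persister cells off the list was lost without 320 µM persister pool 1 (adjusted p = 0.0881) and in thinned cells (0.521). The call for CDC45 in 320 µM adapted cells off the list was lost in thinned cells or in cells with an MKI67 UMI (adjusted p = 0.128 and 0.887). Thinning was the 1 alternative under which the call was lost for CDC45 in 10 µM adapted cells off the list (adjusted p = 0.0684).

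**Figure D5:**
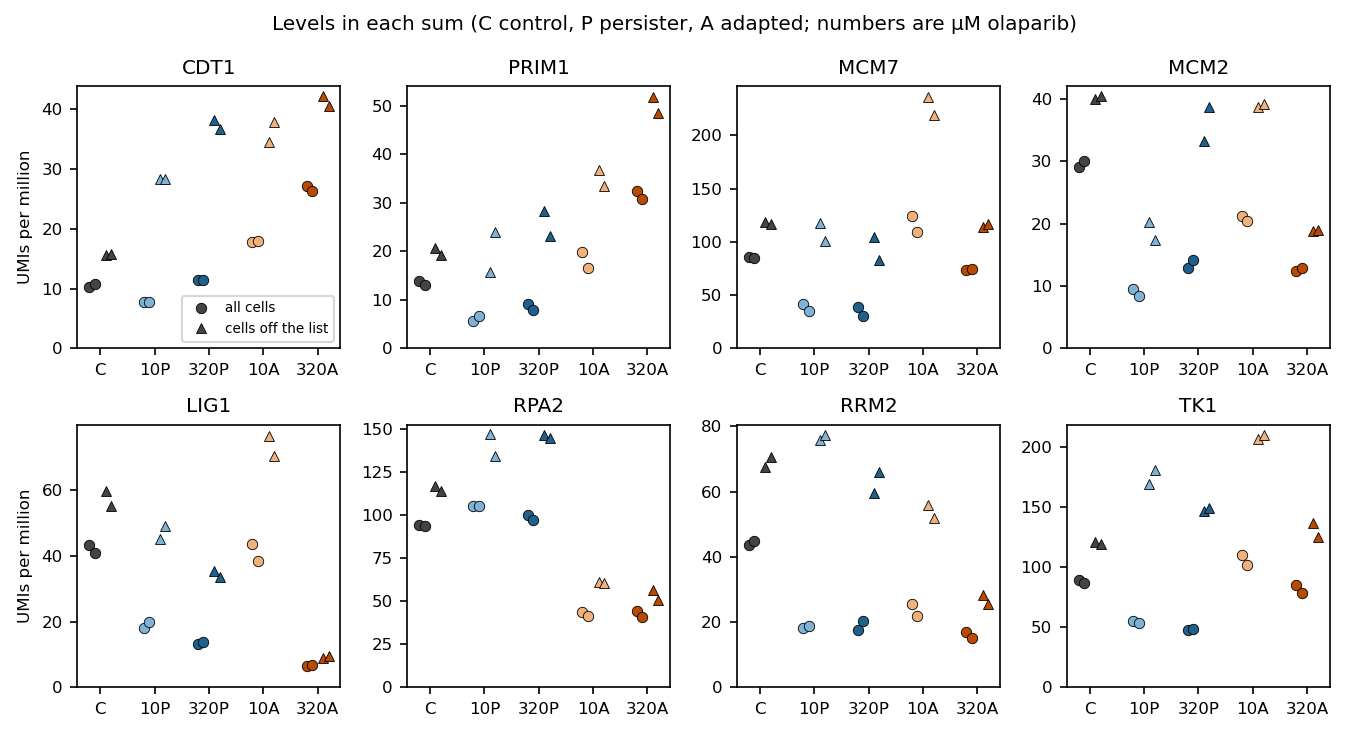
CPM (vertical axis from 0) of 8 members in each sum, by group, with circles for all cells and triangles for cells off the list and 1 symbol per pool. CDT1 and PRIM1 are highest in 320 µM adapted sums, MCM7 and TK1 in 10 µM adapted sums, LIG1 is lowest in 320 µM adapted sums and RPA2 lowest in both adapted groups, among all cells and off the list.

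Of the clamp and its 5 loader subunits, 5 genes were lower in 10 µM and 4 in 320 µM persister cells, against the same 29.3% and 28.3%. PCNA, the clamp, was at 81.1 and 77.6 CPM in control, 54.2 and 42.8 in 10 µM persister, 63.3 and 69.2 in 320 µM persister, 77.8 and 70.8 in 10 µM adapted and 98.1 and 95.1 in 320 µM adapted cells. The persister sums were below control, and the 320 µM adapted sums were above it. The log2 change was -0.71, SE 0.086, adjusted p = 4.17e-08 in 10 µM persister and -0.26 in 320 µM persister cells, and it was 0.28 in 320 µM adapted cells. RFC1, the large subunit of the loader, was at 107 and 105 CPM in control, 84.1 and 77.6 in 10 µM persister, 112 and 105 in 320 µM persister, 106 and 106 in 10 µM adapted and 132 and 136 in 320 µM adapted cells, and the 320 µM adapted sums were above all others (a log2 change of 0.33 against control). RFC3, a small subunit, was at 40.5 and 45.6 CPM in control, 25 and 20.2 in 10 µM persister, 28.5 and 26.8 in 320 µM persister, 16.8 and 16.6 in 10 µM adapted and 22 and 22.4 in 320 µM adapted cells. All treated sums were below control. Its log2 changes in adapted cells were -1.36, SE 0.084, adjusted p = 1.31e-14 at 10 µM and -0.95, SE 0.079, adjusted p = 6.45e-12 at 320 µM over all cells, and -0.96 and -0.73 off the list. RFC3 was also lower in adapted than in persister cells at the same dose, with log2 changes of -0.43 for 10 µM and -0.32 for 320 µM. The small subunits RFC4 and RFC5 had log2 changes of -0.82 and -1.14 in 10 µM persister cells. RFC2 was called in none of the 4 comparisons with control, with log2 changes of -0.38 (adjusted p = 0.145) in 10 µM persister and 0.24 (adjusted p = 0.167) in 10 µM adapted cells. The call for PCNA in 320 µM persister cells was lost without 320 µM persister pool 1 (adjusted p = 0.0852). The call for PCNA in 320 µM adapted cells was lost with library totals alone (adjusted p = 0.407). The call for RFC1 in 320 µM adapted cells was lost with library totals alone (adjusted p = 0.0538). The call for RFC3 in 10 µM adapted against 10 µM persister cells was lost without 10 µM persister pool 1 (adjusted p = 0.168) and in thinned cells (0.319). The call for RFC3 in 320 µM adapted against 320 µM persister cells was lost without 320 µM persister pool 1 (adjusted p = 0.0561) and in thinned cells (0.126). With the pool fitted as a replicate block the test was passed by RFC2 in 10 µM persister cells (adjusted p = 0.00194) and RFC2 in 10 µM adapted cells (5.13e-04).

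RPA is a complex of 3 subunits, and RPA2 had the largest log2 change of them in both adapted groups. RPA2 (chromosome 1, 27891524 to 27914746, minus strand) was at 94.2 and 93.5 CPM in control, 105 and 105 in 10 µM persister, 100.0 and 97.1 in 320 µM persister, 43.7 and 41.5 in 10 µM adapted and 44.1 and 41.1 in 320 µM adapted cells. All adapted sums were below all control and persister sums. The log2 change was -1.14, SE 0.059, adjusted p = 2.24e-16 in 10 µM and -1.14, SE 0.058, adjusted p = 8.23e-17 in 320 µM adapted cells, and off the list -0.92 and -1.11. In 10 µM persister cells RPA2 was the 1 member called above control (log2 change 0.16, adjusted p = 0.029). RPA3, the smallest subunit, was at 168 and 167 CPM in control, 118 and 114 in 10 µM persister, 139.6 and 139 in 320 µM persister, 153 and 151 in 10 µM adapted and 166 and 160.1 in 320 µM adapted cells. RPA1, the largest, had log2 changes of -0.33 and -0.62 in 10 and 320 µM adapted cells, each past the test, while those of RPA3 were -0.14 and -0.036 (adjusted p = 0.489 for the second). The call for RPA2 in 10 µM persister cells was lost without control pool 1, control pool 2, 10 µM persister pool 1 or 10 µM persister pool 2 (adjusted p = 0.0729 to 0.121) and with no filter on low counts or in thinned cells (0.119 and 0.775). The call for RPA3 in 10 µM adapted cells was lost without control pool 1 or 10 µM adapted pool 2 (adjusted p = 0.0598 and 0.0658) and with DESeq2 or in thinned cells (0.0582 and 0.606).

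PRIM1, the catalytic subunit of primase, went the opposite way from its partner PRIM2 in adapted cells. PRIM1 was at 13.9 and 13 CPM in control, 5.67 and 6.73 in 10 µM persister, 9.17 and 7.92 in 320 µM persister, 19.9 and 16.6 in 10 µM adapted and 32.4 and 30.7 in 320 µM adapted cells. It was low in persister cells and above every control sum in both adapted groups, with log2 changes of 0.44, SE 0.10, adjusted p = 2.98e-04 at 10 µM and 1.23, SE 0.091, adjusted p = 5.60e-13 at 320 µM. Off the list the changes were 0.82 and 1.33. In persister cells they were -1.11 and -0.65 over all cells. PRIM2, the regulatory partner, was lower in all 4 groups, with log2 changes of -1.07, -1.14, -0.90 and -0.61. POLA2, which ties polymerase alpha to the helicase, was at 16.4 and 17.4 CPM in control, 20.9 and 18.3 in 10 µM persister, 14.4 and 13 in 320 µM persister, 15.7 and 15.3 in 10 µM adapted and 11.7 and 14.5 in 320 µM adapted cells. In 10 µM persister cells, where 7 of the 9 polymerase and primase genes were lower against 29.3% of all genes, its change did not pass (log2 change 0.21, adjusted p = 0.191), while the log2 change of the catalytic subunit POLA1 was -1.05. In thinned cells, and under no other alternative, calls were lost for PRIM1 in 10 µM persister cells (adjusted p = 0.107), PRIM1 in 320 µM persister cells (0.105), PRIM2 in 10 µM persister cells (0.0914) and POLA1 in 10 µM persister cells (0.332).

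POLD2, a subunit of polymerase delta, was at 97 and 103 CPM in control, 48.5 and 47.8 in 10 µM persister, 87.5 and 87.2 in 320 µM persister, 69.5 and 65.7 in 10 µM adapted and 106 and 108 in 320 µM adapted cells. It was lower in 10 µM persister (log2 change -1.05) and 10 µM adapted cells (-0.56), and in 320 µM adapted cells the change was 0.10 (adjusted p = 0.0814), or -0.12 with library totals alone. POLD1, the catalytic subunit, was at 4.29 and 5.98 CPM in control, 2.58 and 2.16 in 10 µM persister, 2.75 and 2.91 in 320 µM persister, 4.57 and 5.74 in 10 µM adapted and 7.77 and 11.4 in 320 µM adapted cells. Both 320 µM adapted sums were above all other sums (log2 change 0.90, SE 0.17, adjusted p = 7.20e-05), and the persister sums were the lowest (-1.12 and -0.86). POLD3, an accessory subunit, was at 38 and 34.4 CPM in control, 36.1 and 31.2 in 10 µM persister, 26.7 and 26.8 in 320 µM persister, 32.5 and 30.7 in 10 µM adapted and 25.6 and 25.2 in 320 µM adapted cells, with a log2 change of -0.51 in 320 µM adapted cells. POLE2, a subunit of polymerase epsilon, was at 6.81 and 6.62 CPM in control, 3.61 and 1.92 in 10 µM persister, 2.52 and 2.68 in 320 µM persister, 9.79 and 10.1 in 10 µM adapted and 5.32 and 5.23 in 320 µM adapted cells. It rose in 10 µM adapted cells (log2 change 0.56, SE 0.13, adjusted p = 3.67e-04), with 0.91 off the list, and in 320 µM adapted cells the change was -0.35. POLE, the catalytic subunit, fell in all 4 groups, with log2 changes of -0.80 and -0.83 in persister and -0.48 and -0.32 in adapted cells. The call for POLD1 in 10 µM persister cells was lost without control pool 2, 10 µM persister pool 1 or 10 µM persister pool 2 (adjusted p = 0.0541 to 0.159) and in thinned cells (0.366). The call for POLD1 in 320 µM persister cells was lost without control pool 2, 320 µM persister pool 1 or 320 µM persister pool 2 (adjusted p = 0.0666 to 0.0891) and in thinned cells (0.361). The call for POLE2 in 320 µM adapted cells was lost without control pool 1, control pool 2, 320 µM adapted pool 1 or 320 µM adapted pool 2 (adjusted p = 0.0723 to 0.124) and with DESeq2 or in thinned cells (0.0649 and 0.216). The call for POLE in 320 µM adapted cells was lost without control pool 1 or 320 µM adapted pool 1 (adjusted p = 0.0608 and 0.116) and with DESeq2 or in thinned cells (0.14 and 0.348). Thinning was the 1 alternative under which the call was lost for POLE2 in 10 µM adapted cells (adjusted p = 0.159). With the pool fitted as a replicate block the test was passed by POLD2 in 320 µM adapted cells (adjusted p = 0.0193).

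Both genes of Okazaki fragment joining were lower in both persister groups and in 320 µM adapted cells. Of all genes, 29.3% (persister, 10 µM), 28.3% (persister, 320 µM) and 36.9% (adapted, 320 µM) were lower. A count of 2 genes says little beside such shares. LIG1 had the largest log2 change against control of any member over all cells. LIG1 (chromosome 19, 48115445 to 48170603, minus strand) was at 43.5 and 40.9 CPM in control, 18.1 and 19.9 in 10 µM persister, 13.3 and 13.7 in 320 µM persister, 43.6 and 38.5 in 10 µM adapted and 6.39 and 6.97 in 320 µM adapted cells. The 320 µM adapted sums were the lowest of all, the 10 µM adapted sums overlapped control, and the persister sums were between. The log2 change was -2.65, SE 0.10, adjusted p = 1.74e-20 in 320 µM adapted, -1.15, SE 0.11, adjusted p = 4.84e-10 in 10 µM persister and -1.64, SE 0.10, adjusted p = 1.18e-14 in 320 µM persister cells, against -0.039 (adjusted p = 0.649) in 10 µM adapted cells. Off the list LIG1 was at 59.9 and 55.1 CPM in control, 45.2 and 49 in 10 µM persister, 35.3 and 33.5 in 320 µM persister, 76.4 and 70.4 in 10 µM adapted and 8.86 and 9.44 in 320 µM adapted cells. There the log2 change in 320 µM adapted cells was -2.65, SE 0.10, adjusted p = 6.48e-24, and the call held under every alternative run. Between the adapted populations the log2 change from 10 to 320 µM was -2.62, SE 0.10, adjusted p = 1.75e-19. FEN1, the flap nuclease of the same step, was at 71.9 and 75.1 CPM in control, 60.1 and 55 in 10 µM persister, 39.8 and 44.1 in 320 µM persister, 49.6 and 43.5 in 10 µM adapted and 41.2 and 39.7 in 320 µM adapted cells. All treated sums were below control, with log2 changes of -0.66 and -0.86 in 10 and 320 µM adapted cells, and -0.76 off the list at 320 µM.

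All 4 genes of nucleotide supply were lower in both persister groups, against 29.3% and 28.3% of all genes. TYMS, thymidylate synthase, was at 76.3 and 100.1 CPM in control, 30.4 and 44.2 in 10 µM persister, 40.4 and 50.6 in 320 µM persister, 90.3 and 101 in 10 µM adapted and 100.5 and 128 in 320 µM adapted cells. Pool 2 was above pool 1 in all 5 groups for TYMS, which overlaps the opposite-strand gene ENOSF1, and how strand was handled in counting is not given in the sources used here. Its log2 changes were -1.23 and -0.96 in persister cells, and 0.12 (adjusted p = 0.646) and 0.37 (adjusted p = 0.154) in adapted cells. TK1 was at 89.2 and 86.7 CPM in control, 55.2 and 53.3 in 10 µM persister, 48.2 and 48.5 in 320 µM persister, 110.5 and 102 in 10 µM adapted and 85.3 and 78.8 in 320 µM adapted cells. It rose in 10 µM adapted cells (log2 change 0.27, SE 0.056, adjusted p = 1.13e-04), with 0.79 off the list. RRM1 and RRM2 are the large and small subunits of ribonucleotide reductase. RRM1 was at 68.5 and 68.9 CPM in control, 21.4 and 29.3 in 10 µM persister, 44.3 and 45.3 in 320 µM persister, 56.9 and 51.1 in 10 µM adapted and 73 and 72.6 in 320 µM adapted cells, with 320 µM adapted sums slightly above control and not past the test (log2 change 0.084, adjusted p = 0.251). RRM2 was at 43.6 and 44.8 CPM in control, 18.3 and 19 in 10 µM persister, 17.7 and 20.4 in 320 µM persister, 25.7 and 22 in 10 µM adapted and 17 and 15.2 in 320 µM adapted cells. All treated sums were below control, with a log2 change of -1.46, SE 0.085, adjusted p = 1.82e-15 in 320 µM adapted cells and -1.36 there off the list. The call for TYMS in 10 µM persister cells was lost without 10 µM persister pool 1 (adjusted p = 0.104) and in thinned cells (0.0543). The call for TYMS in 320 µM persister cells was lost without control pool 2, 320 µM persister pool 1 or 320 µM persister pool 2 (adjusted p = 0.0544 to 0.117) and with the 4 sums compared alone (0.0723). With the pool fitted as a replicate block the test was passed by TYMS in 10 µM adapted cells (adjusted p = 0.0128) and TYMS in 320 µM adapted cells (5.42e-12).

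Of the chromatin genes, CHAF1A and CHAF1B belong to the CAF-1 complex that places histones on new DNA. CHAF1A was at 36.4 and 36.1 CPM in control, 18.3 and 19.5 in 10 µM persister, 17.2 and 18.9 in 320 µM persister, 32.1 and 30.2 in 10 µM adapted and 26 and 31.9 in 320 µM adapted cells, with persister log2 changes of -0.94 and -1.01. CHAF1B was at 5.88 and 7.68 CPM in control, 3.61 and 4.08 in 10 µM persister, 5.50 and 6.17 in 320 µM persister, 7.84 and 8.77 in 10 µM adapted and 10.5 and 11.7 in 320 µM adapted cells. It stood higher in 320 µM adapted cells (log2 change 0.71, SE 0.13, adjusted p = 1.70e-05), and the change was -0.82 in 10 µM persister cells. UHRF1, which keeps DNA methylation through replication, had log2 changes of -1.33 and -1.32 in persister and -0.68 in 320 µM adapted cells, each past the test. SLBP, the binder of histone mRNA stem loops, was at 55.7 and 73.5 CPM in control, 52.9 and 76.2 in 10 µM persister, 49.9 and 74.4 in 320 µM persister, 49 and 61.4 in 10 µM adapted and 60.5 and 87.3 in 320 µM adapted cells, and pool 2 was above pool 1 in all groups. No comparison with control called it, with log2 changes of 0.0034, -0.058, -0.23 and 0.20. The call for CHAF1B in 10 µM persister cells was lost without control pool 2 or 10 µM persister pool 1 (adjusted p = 0.0586 and 0.0846) and in thinned cells (0.519). In thinned cells, and under no other alternative, calls were lost for CHAF1A in 10 µM persister cells (adjusted p = 0.109) and CHAF1B in 320 µM adapted cells (0.229). With the pool fitted as a replicate block the test was passed by SLBP in 10 µM adapted cells (adjusted p = 9.56e-05) and SLBP in 320 µM adapted cells (2.37e-04).

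The 2 E2F factors changed in opposite directions in 320 µM adapted cells. E2F1, an activator of S phase genes, was at 8.45 and 8.95 CPM in control, 7.48 and 5.05 in 10 µM persister, 8.14 and 12.6 in 320 µM persister, 8.10 and 9.09 in 10 µM adapted and 11.8 and 12.8 in 320 µM adapted cells. Its 320 µM adapted log2 change was 0.50, SE 0.13, adjusted p = 9.93e-04, and off the list it was 1.35, SE 0.17, adjusted p = 2.80e-08 in 320 µM persister cells. E2F8, a repressor of the family, was at 10.6 and 11.5 CPM in control, 3.09 and 4.08 in 10 µM persister, 5.04 and 4.42 in 320 µM persister, 7.31 and 5.80 in 10 µM adapted and 4.45 and 4.99 in 320 µM adapted cells. All treated sums were below control, with log2 changes of -1.61, -1.22, -0.75 and -1.22. The call for E2F1 in 320 µM adapted cells was lost with library totals alone (adjusted p = 0.057). Thinning was the 1 alternative under which the call was lost for E2F8 in 10 µM persister cells (adjusted p = 0.0906).

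Set against persister cells of the same dose, adapted cells had more members higher than lower over all cells. At 10 µM 4 members were lower and 33 higher, against 29.3% lower and 31.4% higher of all genes, with a median log2 change of 0.62, and 19 were called in thinned cells. At 320 µM 4 were lower and 32 higher, against 32.6% lower and 34.1% higher, with a median of 0.51. With library totals alone, where the median of all genes was -0.25, the split was 10 lower and 21 higher. PRIM1, TYMS and MCM7 had log2 changes of 1.55, 1.35 and 1.60 at 10 µM. Off the list more members were lower at 320 µM: 23 were lower and 4 higher in adapted than in persister cells, against 28.8% lower and 27.8% higher, with 33 lower and 1 higher under library totals alone and 14 called in thinned cells. At 10 µM off the list 6 were lower and 12 higher, against 19.9% lower and 18.1% higher, with 10 lower and 8 higher under library totals alone and 6 called in thinned cells. At 320 µM the log2 change of LIG1 was -1.01 over all cells and -1.91 off the list, and that of RPA2 -1.21 and -1.44. The call for TYMS in 10 µM adapted against 10 µM persister cells was lost without 10 µM persister pool 1 (adjusted p = 0.0752).

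The doses were also compared within each kind of cell. In 320 µM against 10 µM persister cells 5 members were lower and 16 higher, against 24.4% lower and 25.3% higher. That count of 21 was 13 without 320 µM persister pool 2 and 4 in thinned cells. In 320 µM against 10 µM adapted cells 13 were lower and 18 higher, against 32.4% lower and 33.4% higher, or 19 lower and 14 higher with library totals alone. Apart from LIG1, the adapted populations differed in MCM2 (log2 change -0.72) and MCM7 (-0.65), lower at 320 µM, and in POLD1 (0.90), PRIM1 (0.79) and POLD2 (0.67), higher at 320 µM, each past the test.

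A share of adapted cells carried RNA of ACTA2, a smooth muscle actin that also marks stromal cells. Among cells off the list, 37.4 and 40.4% of 10 µM adapted cells had a UMI after thinning, 18.8 and 17.6% of 320 µM adapted and 1.71 and 1.74% of control cells. The 10 µM adapted cells off the list were compared with control in 2 sets, a split chosen after the data were seen. With ACTA2, 8 members were lower and 22 higher, against 27.7% lower and 27.7% higher of 11573 genes, and without it 9 and 17, against 27.2% lower and 27.9% higher. Between the sets 6 members were lower and 7 higher with ACTA2, against 11.9% lower and 13.1% higher. That fit took the sets as independent sums, with no block for the pool they share, so their pairing was left out. Against control, in cells with and without ACTA2, the log2 change was 1.14 and 1.27 for CDT1, 1.20 and 0.84 for MCM7, 0.98 and 0.76 for PRIM1, -1.06 and -0.87 for RFC3 and -1.17 and -0.77 for RPA2. Each kept its direction in both sets. In the set without ACTA2 all 6 stromal markers tested were still higher than control (median log2 change 3.89). The split therefore does not set stromal marker RNA apart, and its part in these changes was not tested.

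Other genes of the pathway were read from lists outside the 47. On a list of 47 further replication genes, none of them a member, 32 were lower and 4 higher in 10 µM persister cells, 31 and 5 in 320 µM persister, 26 and 7 in 10 µM adapted and 26 and 11 in 320 µM adapted cells, with median log2 changes of -0.64, -0.45, -0.33 and -0.26. The shares of all genes were 29.3% lower and 27.3% higher, 28.3% lower and 26.3% higher, 33.4% lower and 33.7% higher and 36.9% lower and 37.6% higher in the same order. Off the list the counts were 11 and 3, 12 and 13, 17 and 12, and 24 and 12, against 17.1% lower and 17.4% higher, 21.8% lower and 20.8% higher, 29.7% lower and 30.1% higher and 36.2% lower and 36.4% higher of all genes, so that the 320 µM persister counts off the list were near the share of all genes. CLSPN, the fork checkpoint adaptor claspin, was at 156 and 156 CPM in control, 57.8 and 57.7 in 10 µM persister, 81.9 and 85.9 in 320 µM persister, 62.1 and 59.3 in 10 µM adapted and 53.6 and 52 in 320 µM adapted cells. All treated sums were below control, with log2 changes of -1.36 and -1.56 in 10 and 320 µM adapted cells. In 320 µM adapted cells the log2 change was -1.54 for NASP, a chaperone of histones H1 and H3, and -1.29 for MTBP, a partner of treslin in origin firing. In 10 µM adapted cells it was -1.06 for POLE4, a small subunit of polymerase epsilon.

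The E2F and Rb pathway sets when S phase genes are transcribed: cyclins D and E drive the phosphorylation of Rb, CDKN1A (p21) inhibits the cyclin-dependent kinases, and TFDP1 is the dimer partner of E2F. Of 20 E2F and Rb regulators, 11 were lower and 4 higher in 10 µM persister, 10 and 2 in 320 µM persister, 13 and 2 in 10 µM adapted and 9 and 5 in 320 µM adapted cells. All-gene shares of lower genes were 29.3%, 28.3%, 33.4% and 36.9%, and of higher genes 27.3%, 26.3%, 33.7% and 37.6%, so that the 320 µM adapted count lower was near the share of all genes. CCNE2, a cyclin of S phase entry, was at 23.3 and 22.8 CPM in control, 11.3 and 7.69 in 10 µM persister, 12.4 and 15.3 in 320 µM persister, 12.2 and 11.2 in 10 µM adapted and 8.21 and 9.81 in 320 µM adapted cells. Again all treated sums were below control. CCND1, a cyclin that starts Rb phosphorylation, was at 224 and 223 CPM in control, 320.1 and 341 in 10 µM persister, 215 and 205 in 320 µM persister, 209.9 and 213 in 10 µM adapted and 39.6 and 43.8 in 320 µM adapted cells. Its 320 µM adapted sums were far below all others (log2 change -2.42, SE 0.055, adjusted p = 2.17e-25), and its 10 µM persister sums were above control (log2 change 0.57, adjusted p = 7.47e-11). CCNE1, another cyclin of S phase entry, was at 18.4 and 20.4 CPM in control, 5.93 and 13 in 10 µM persister, 7.91 and 11.2 in 320 µM persister, 13.2 and 13.1 in 10 µM adapted and 7.45 and 7.43 in 320 µM adapted cells. Its log2 changes against control were -1.02, -1.03, -0.56 and -1.38 in the same order of groups, each past the test, and all treated sums were below control. CDKN1A was at 14 and 15.7 CPM in control, 29.7 and 28.8 in 10 µM persister, 46.1 and 56.8 in 320 µM persister, 29.8 and 29.9 in 10 µM adapted and 63.1 and 64.1 in 320 µM adapted cells, with log2 changes of 0.98, 1.79, 1.01 and 2.10, each past the test. All its treated sums were above control. The log2 change of TFDP1 was -1.08 in 10 µM and -1.26 in 320 µM adapted cells. In thinned cells, and under no other alternative, the call was lost for CCNE1 in 10 µM persister cells (adjusted p = 0.158).

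The mitotic genes serve as a reference for a later stage of the cycle. All 28 were lower in both persister groups, against 29.3% and 28.3% of all genes, with median log2 changes of -1.79 and -1.58. KIF20A, a kinesin of cytokinesis, and BUB1B, a spindle checkpoint kinase, had log2 changes of -2.29 and -2.41 at 10 µM and -2.19 and -2.12 at 320 µM. In 10 µM adapted cells 24 were lower and 1 higher, against 33.4% lower and 33.7% higher of all genes, and in 320 µM adapted cells 15 and 5, against 36.9% lower and 37.6% higher. Off the list 23 were lower and 0 higher at 10 µM and 25 and 1 at 320 µM in persister cells, and 11 and 10 at 10 µM and 11 and 12 at 320 µM in adapted cells. The shares of all genes there were 17.1% lower and 17.4% higher, 21.8% lower and 20.8% higher, 29.7% lower and 30.1% higher and 36.2% lower and 36.4% higher, and the adapted mitotic counts were near them. In summed level over all cells, mitotic genes stood at 3445 and 3490.0 CPM in control and 3524 and 3425 in 320 µM adapted cells, where the pools overlapped. Per cell the pools did not overlap. Thinned to 3000 UMIs, cells held a mean of 9.08 and 9.06 mitotic UMIs in control and 7.32 and 6.93 in 320 µM adapted cells. The 47 replication genes summed to 2137 and 2144 CPM in control, 1279 and 1237 in 10 µM persister, 1412 and 1449 in 320 µM persister, 1819 and 1716 in 10 µM adapted and 1844 and 1874 in 320 µM adapted cells, and every treated sum was below control. What share of a member's level follows the position of its cells in the cycle was not tested.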

How the data were processed

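Kuramochi cells of 5 groups were profiled by droplet single-cell RNA-seq in 2 pools. The deposited matrix holds UMI counts, made by the authors, for 19893 genes in 13800 cells. Cell Ranger 3.1, Seurat and the builds hg38 and GRCh38 are named, with no role given, per the submitters' processing notes. How reads were counted, hashtags assigned and cells filtered is not given in the sources used here. Group and pool were read from the cell names, since the 8 gene expression and 2 hashtag libraries each mix groups. The matrix uses 7346 of 9780 deposited barcodes of pool 1 and 6454 of 9117 of pool 2. A total of 13 barcodes occur in both pools, which concerns 26 cells. No doublet caller was run here. For 7725 listed cells the deposited nUMI count and nGene count differ from the matrix, so only the cell names of that table were used.

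Counts were summed per group and pool and tested with edgeR 4.0.16 in R 4.3.3 (quasi-likelihood, TMM scaling, filterByExpr, a mean per group over all 10 sums, 5 residual degrees of freedom), with Benjamini-Hochberg adjustment over all genes tested and a threshold of 0.05. Values off and on the list were fitted apart, and their difference in a fit of 20 sums with the group and pool of the cells as a block. Log2 changes and CPM come from these fits. A count of 3 UMIs stands at 0.849 and 0.801 CPM in the 10 µM persister sums over all cells, the shallowest, and at 3.69 and 3.58 CPM off the list, and such floors cover counting error only. The fits were tested on simulated data. Alternatives were DESeq2 1.42.0, library totals alone, no filter on low counts, the 4 sums compared alone, each sum left out, thinning to 3000 or 5000 UMIs per cell, cells with an MKI67 UMI, and the pool as a replicate block. The ACTA2 split and the omission of shared barcodes were added after the data were seen. Pool numbers are taken from the cell names. Sums of a pool deviated together from their group means (r from 0.309 to 0.565 over 3761 genes in all 10 pairs of groups), so the pools pair the sums.

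Members and gene lists were chosen with earlier results of these data known. Values in every sum are given for the 2 members of each role with the highest mean CPM and for members called against most of their role. Genes of other lists are examples from the up to 6 per comparison with the largest change at 20 CPM or more, plus MKI67, CCNE1, CCNE2, CCND1 and CDKN1A. Other genes named, such as the marker genes, are not chosen by that rule. 1 further replication gene was taken off its list and is not reported here. Gene positions are from GENCODE 29 and promoter sequences from RefSeq on GRCh38.p14.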

Additional observations from a re-analysis of the deposited data

Results flagged for a closer look

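For 15 results a member was higher than control off the list and lower than control on it, with both effects and their difference past the edgeR test; these are log2 changes, and each difference is the effect off the list minus that on it. In 320 µM persister cells the difference was 2.45 for TK1 (0.30 off the list, -2.13 on it), 2.12 for CDC45 (0.45 off the list, -1.66 on it), 2.12 for ORC1 (0.54 off the list, -1.57 on it), 1.44 for ORC6 (0.39 off the list, -1.03 on it), 1.30 for CDC6 (0.46 off the list, -0.83 on it), 1.28 for RFC3 (0.28 off the list, -0.98 on it), 1.06 for RRM1 (0.31 off the list, -0.74 on it), 0.933 for RPA3 (0.43 off the list, -0.48 on it), 0.903 for POLD3 (0.40 off the list, -0.49 on it) and 0.866 for RFC1 (0.67 off the list, -0.18 on it), with adjusted p of the differences from 3.71e-38 to 0.00107. In 10 µM persister cells it was 1.40 for TK1 (0.54 off the list, -0.91 on it), with an adjusted p of 2.21e-12. In 10 µM adapted cells it was 1.32 for CDC45 (0.42 off the list, -0.90 on it) and 0.374 for RPA3 (0.16 off the list, -0.22 on it), with adjusted p of 1.23e-05 to 0.00176. In 320 µM adapted cells it was 1.36 for ORC6 (0.28 off the list, -1.07 on it) and 1.25 for GINS4 (0.32 off the list, -0.93 on it), with adjusted p of 4.30e-25 to 1.98e-06.

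CDC45, RPA3, TK1 and ORC6 each had such opposite changes in 2 of the treated groups. Only the members were searched for such results, so how common they are among all genes was not counted. If replication genes helped to make the deposited list, part of these opposite changes follows from the choice of cells, and that part was not tested.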

How the results depend on the processing

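Of 602 called member results, alternatives left the direction and the call of 8961 of their values as they were, cost 820 the call and turned 17. With the pool fitted as a replicate block, 522 called values kept the call, 0 lost it, 49 further member results passed, and 0 of 18 member counts moved by more than 1.5 times. The difference between sets of cells already has the group and pool as its block, so no further paired fit, DESeq2 fit or fit of 4 sums was run for it. Thinned to 3000 UMIs, which leaves fewer counts, the members called were 26 for 10 µM persister against control, 19 for 10 µM adapted against 10 µM persister and 4 for 320 µM against 10 µM persister cells. Off the list they were 1 and 11 for 10 and 320 µM persister cells, and 6 and 14 for adapted against persister cells at 10 and 320 µM. On the list they were 14 and 17 for 10 and 320 µM persister cells, and for the difference 1 and 13 in persister and 8 and 9 in adapted cells at 10 and 320 µM. DESeq2 called 11 (from 19) on the list in 10 µM adapted cells. Cells with an MKI67 UMI in place of those off the list gave 7 and 17 (from 14 and 27) in 10 and 320 µM persister cells. With each sum left out in turn, the count was 13 to 22 for 320 µM against 10 µM persister cells and 8 to 15 for 10 µM persister cells off the list. For the difference it was 5 to 11 in 10 µM persister, 7 to 16 in 10 µM adapted and 9 to 16 in 320 µM adapted cells. The cause of these moves, other than fewer counts or sums, was not tested. Shares of all genes called under the alternatives are not given here, so member counts under them are not set against all genes.

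The share off the list in 10 µM persister cells was 21.3% among cells of at least 3000 UMIs. Without thinning, member UMIs per 3000 were 5.98 in control and 4.26 in 10 µM persister cells, 8.23, 10.7 and 8.81 off the list in control, 320 µM persister and 10 µM adapted cells, and 2.62 on it in 10 µM persister cells. Thinned to 5000 UMIs they were 8.83 for 10 µM adapted cells off the list, and 2.56 and 2.36 for 10 µM persister and 10 µM adapted cells on it.

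Some log2 changes turned. Without scaling they were POLD2 -0.12 (from 0.10) for 320 µM adapted against control, MCM4 -0.063 (from 0.22), RFC4 -0.24 (from 0.044), RPA3 -0.055 (from 0.23) and DSCC1 -0.26 (from 0.022) for 320 µM adapted against 320 µM persister, RPA3 -0.050 (from 0.11) for 320 µM adapted against 10 µM adapted, RRM1 -0.0085 (from 0.15) for 320 µM adapted against control, off the list, MCM7 -0.056 (from 0.30) for 320 µM adapted against 320 µM persister, off the list, RFC1 -0.14 (from 0.23) and POLD2 -0.31 (from 0.048) for 320 µM adapted against control, on the list. In thinned cells they were POLA2 0.23 (from -0.33) and TFDP1 0.37 (from -0.49) for 10 µM adapted against 10 µM persister, MCM2 -0.050 (from 0.59) for 320 µM persister against 10 µM persister, CDC6 -0.070 (from 0.41) for 10 µM persister against control, off the list, POLA1 0.053 (from -0.65) for 320 µM persister against control, off the list, FEN1 0.056 (from -0.19) for 10 µM adapted against control, off the list, POLA2 0.40 (from -0.52) for 10 µM adapted against 10 µM persister, off the list, CDC6 0.16 (from -0.38) for 320 µM adapted against 320 µM persister, off the list, MCM6 0.020 (from -0.30) for 320 µM adapted against control, on the list. In cells with an MKI67 UMI they were MCM5 0.14 (from -0.46) for 320 µM persister against control, off the list, CDC45 -0.028 (from 0.41), RRM1 -0.14 (from 0.15) and PCLAF -0.030 (from 0.34) for 320 µM adapted against control, off the list. Library totals alone moved the median of all genes by -0.22 for 320 µM adapted against control, -0.13 and -0.25 for adapted against persister cells at 10 and 320 µM and -0.14 for 320 µM against 10 µM adapted cells, all on the log2 scale. The 10 µM persister sums off the list rest on 74 and 63 cells.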
